A study of Homo sapiens with 12 samples.

Results

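The response of control HT29 cells to tunicamycin was described from the 6 of the 12 libraries of the series that carry a non-targeting guide RNA. HT29 is a line from a human colorectal adenocarcinoma. All 6 libraries came from HT29 cells that express the Cas9 nuclease and had been transduced with lentivirus carrying that guide, so both groups share the nuclease, the virus and the guide. These cells are called WT, as in the sample titles. The WT DMSO group (n = 3) received the solvent and the WT Tm group (n = 3) received tunicamycin (Tm) at 0.3 µg/ml for 14 h, and members were chosen by these labels alone. The treatment protocol field names Tm for all samples, and the DMSO libraries were identified by the treatment characteristic and the series design text. The other 6 libraries are QRICH1 knockout (KO) cells given DMSO or Tm, and the series compares them with WT. Replicates are described in the design text as biological, and all come from 1 cell line and 1 time point.

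Tunicamycin inhibits the enzyme that starts N-linked glycan assembly, so that proteins misfold in the endoplasmic reticulum (ER). The unfolded protein response then raises ER chaperones, degradation and transport factors through IRE1 and XBP1, through ATF6, and through PERK, ATF4 and CHOP. PERK also slows the start of translation by phosphorylating eIF2, and ER stress is known to hold cells in the G1 phase. The genes of these ER programmes were put on 7 lists (413 genes), called the ER lists here. The rest of the transcriptome, including 38 further lists (1648 genes) of other functions, is the main subject.

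Total counts were 6856736 to 15131238 per library, and 13124 to 13714 genes had a count. At these depths the limit that a count of 0 allows, 3 counts, corresponds to 0.198 to 0.438 counts per 1000000 (CPM), for counting error only. HSPA5, the ER chaperone BiP, was at 1200, 968 and 1074 CPM in the DMSO libraries and at 26394, 30882 and 26275 in the Tm libraries, and the groups lay far apart. Of 13 epithelial markers all had counts and 12 passed the count filter, whereas the intestinal transcription factor CDX2 averaged only 0.686 CPM under DMSO. Of 29 markers of blood, vessel and connective tissue cells 5 passed the filter and 7 were at 0 in all 6 libraries. Their summed level was 2306 to 2614 CPM under DMSO and 1838 to 1931 under Tm, nearly all of it LYZ, which intestinal epithelium also makes. Between 2.59% and 3.69% of the counts came from the mitochondrial genome.

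Of 11323 genes tested with edgeR's quasi-likelihood test, 2690 (23.8%) were called at an adjusted p under 0.05, with 12.6% called higher under Tm and 11.1% called lower. Called genes that changed at least 2-fold were 4.73% of those tested in the upward and 2.27% in the downward direction. Outside the ER lists, which leave out 10927 of the genes tested, 1175 genes rose and 1250 fell. These were 82.1% of all that rose and 99.3% of all that fell. Of ER-list genes 64.6% were called higher, against 10.8% of the other genes, of which 11.4% were called lower. The median log2 fold change of the called genes was 0.74 for those that rose and -0.68 for those that fell outside the ER lists, against 1.44 for the 256 ER-list genes that rose. Of 396 ER-list genes tested 9 fell. The other lists held 189 of the 1175 that rose and 314 of the 1250 that fell. In 37.5% of all genes tested the 3 libraries of one group lay above the 3 of the other. CPM values of genes below are scaled by TMM factors, and the SE is of the log2 fold change. In all 186 called genes taken by the rule for named genes the groups did not overlap, a condition the rule itself set for those with the largest folds.

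On the scale of the RNA pool the response moved 16.4% of all counts from one set of genes to another. The same measure was 15.8% to 18.8% between single libraries of the groups (9 pairs) and 4.93% to 9.46% between libraries of 1 group (6 pairs). ER-list genes took 56.7% of the gain, with HSPA5 alone taking 15.1%, and accounted for 0.657% of the loss. Their share of all counts went from 4.42% ± 0.154 to 13.6% ± 0.303 (SD, n = 3). The loss was spread wider than the gain, since the 35 genes that gained most made up 50% of the gain and the 80 that lost most 50% of the loss. In bulk RNA, fewer cells of a kind and less RNA per cell cannot be told apart, and levels are relative to the total.

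**Figure D1:**
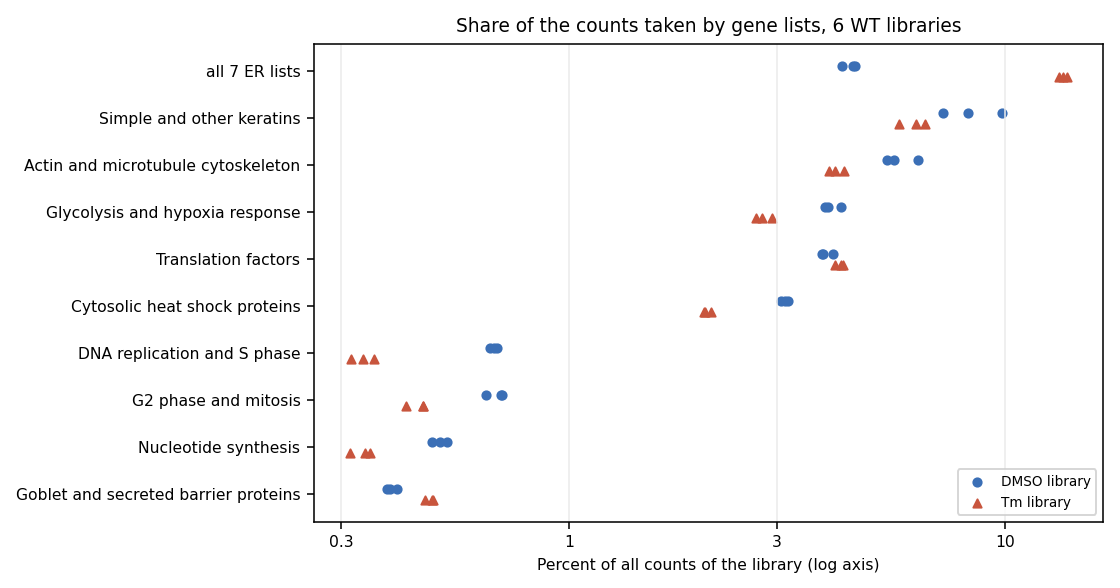
Share of all counts of a library taken by gene lists (log axis) in the 3 DMSO and 3 Tm libraries of WT cells. The ER lists went from 4.42% to 13.6% on average, and the DNA replication list from 0.672% to 0.337%.

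Among genes outside the ER lists with a mean of at least 10 CPM, the largest increases were in genes of varied function. PRSS1, a trypsinogen gene at chr7:142749468-142753076 (hg38), was at 1.497, 0.365 and 0.967 CPM under DMSO and 20.9, 20.2 and 16.9 under Tm. It rose 23-fold, and the related PRSS2 rose 5.63-fold, but reads of these near-identical genes may have been shared between them. GLRX, a glutaredoxin that reduces protein-glutathione bonds, was at 3.13, 4.87 and 5.73 CPM under DMSO and 60.05, 60.96 and 55.5 under Tm. It rose 12.5-fold (log2 3.64, SE 0.215, edgeR adjusted p = 3.58e-10). TSPYL2, a relative of the nucleosome assembly proteins on chromosome X, had levels of 11.02, 11.1 and 10.9 CPM that became 108, 115 and 108. Its 10.1-fold rise had an SE of only 0.123, and the libraries of each group were almost level. HID1, which acts in the sorting of secretory granule cargo at the trans-Golgi, rose from 15.8, 14.3 and 15.1 CPM to 126, 122 and 116, which is 8.1-fold.

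AREG, the EGF receptor ligand amphiregulin, was at 24.1, 27.0 and 35.1 CPM under DMSO and 203, 252 and 225 under Tm. It rose 7.84-fold (log2 2.97, SE 0.145, edgeR adjusted p = 2.68e-11), and its relative EREG rose 3.86-fold. FUT3, the fucosyltransferase of the Lewis blood group antigens, rose 6.84-fold and CHPF, a chondroitin polymerising factor, 5.72-fold. STEAP1, of a family of metalloreductases, rose 6.73-fold, and ARMCX3, a protein of the mitochondrial outer membrane, 6.31-fold. HSPA13, a microsomal member of the HSP70 family that was on none of the ER lists, was at 8.03, 10.9 and 14.2 CPM under DMSO and 97.1, 39.7 and 66.0 under Tm. Its 6.01-fold rise had a wide SE of 0.366, and Tm library 2 was below the other 2 Tm libraries. CDK2AP2, which encodes a binding partner of the kinase CDK2, rose 5.98-fold, and the mucin-like membrane protein gene PARM1 6.04-fold.

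Among genes that met the same limits the decreases were smaller. EDN1, endothelin-1, at chr6:12290363-12297194 (hg38), fell from 29.8, 25.3 and 21.0 CPM to 6.93, 8.13 and 3.8. SOSTDC1, a secreted antagonist of BMP and WNT ligands, fell from 30.2, 32.1 and 34.7 CPM to 7.26, 9.27 and 9.43. LGR5, the R-spondin receptor that marks intestinal stem cells, fell from 19.3, 20.6 and 15.999 CPM to 4.29, 5.85 and 5.93. In each of these 3 genes the highest Tm library was far below the lowest DMSO library. CLDN2, a claudin that forms cation-permeable pores in tight junctions, fell from 27.6, 30.3 and 25.5 CPM to 8.17, 10.7 and 8.21. TNS4, a tensin of focal adhesions, fell from 332, 369 and 337 CPM to 117, 128 and 118. DPYSL2, a microtubule-binding protein gene, and MYORG, a glycosidase gene, fell 2.95-fold and 2.94-fold.

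**Figure D2:**
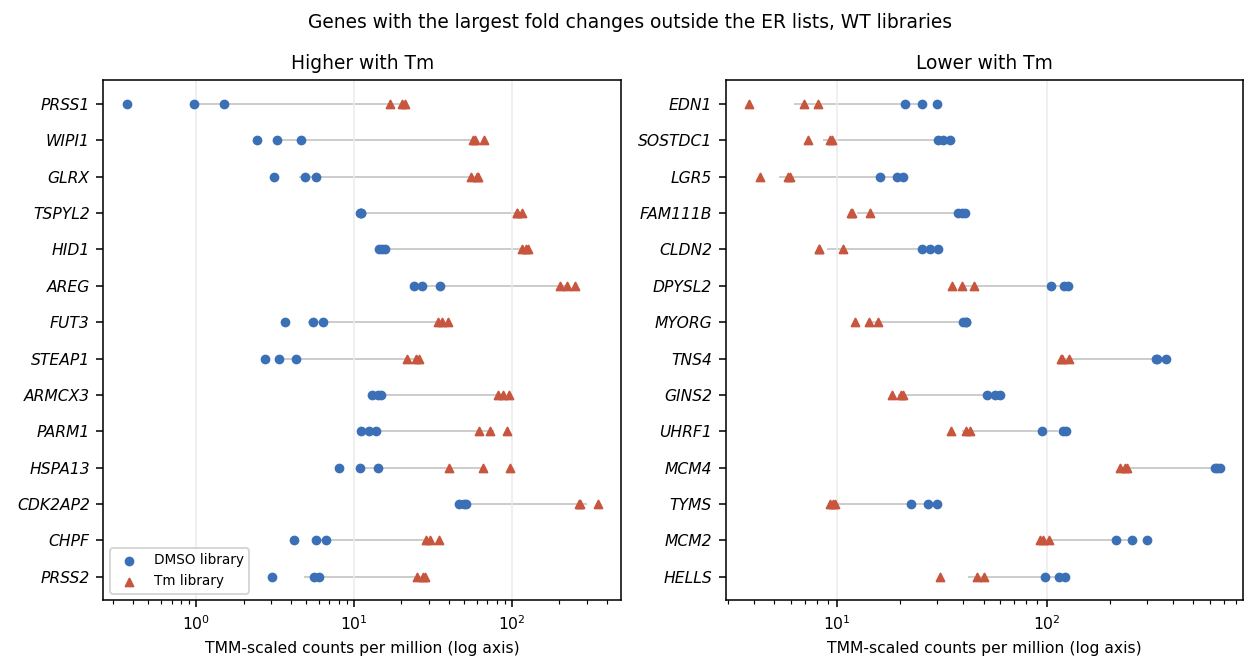
TMM-scaled CPM (log axis) in each WT library for the 14 genes with the largest increase and the 14 with the largest decrease outside the ER lists, among called genes with a mean of at least 10 CPM and no overlap between the groups, with a grey line between group means. The Tm libraries lie on one side of the DMSO libraries for every gene drawn, which was a condition for drawing it, and the folds drawn reach 23 upward (PRSS1) and 3.89 downward (EDN1).

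Proliferation genes fell, and the DNA replication list had the largest share of called members among the 38 lists outside the ER programmes. Of its 54 genes 43 fell (79.6%, beside 11.1% of all genes tested), 10 were not called and 1 rose. The median log2 fold change was -0.82, beside -0.02 over all genes tested. The list holds the replicative helicase, whose ring of MCM proteins unwinds DNA together with CDC45 and the GINS proteins. Of the 9 genes whose symbols begin with MCM 8 fell, with a median of -1.07. MCM4 fell from 668, 637 and 649 CPM to 224, 236 and 240, with narrow groups far apart. MCM6 fell from 142, 147 and 142 CPM to 54.8, 53.2 and 65.2. GINS2 fell from 59.7, 51.8 and 56.7 CPM to 20.1, 20.6 and 18.2 (log2 -1.51, SE 0.12, edgeR adjusted p = 2.6e-08). CDC45, at 94.2 and 77.0 CPM on average, was not called (log2 -0.29, edgeR adjusted p = 0.0579).

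The 1 member that rose was CDC6, which loads the MCM ring onto origins. It was at 106, 99.1 and 107 CPM under DMSO and at 238, 228 and 230 under Tm, a 2.24-fold rise with an SE of 0.0934, whereas the MCM4 and MCM6 levels were lower in all 3 Tm libraries. ORC1, the origin-binding subunit, fell (log2 -1.11, edgeR adjusted p = 5.01e-06), and so did E2F1, a transcription factor of S-phase genes (log2 -1.20, edgeR adjusted p = 6.99e-05). CDT1, the other loading factor, was not called (log2 -0.48, edgeR adjusted p = 0.185). E2F1, ORC1, CDT1 and CDC45 are outside the rule for named genes and were chosen with their values known, as were AXIN2, ERBB3, MET and the uncalled genes below.

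In the G2 and mitosis list 33 of 57 genes fell (57.9%, beside 11.1% of all genes tested) and none rose. The median was -0.50. For increases edgeR had 2 members at an unadjusted p under 0.05, and DESeq2, limma-voom and edgeR without Tm library 1 each called 1. NCAPH, a condensin subunit, fell from 42.6, 49.9 and 44.4 CPM to 24.6, 22.0 and 28.3. CCNA2, cyclin A2, fell 1.64-fold, CCNF, cyclin F, 1.68-fold and TPX2, a spindle assembly factor, 1.66-fold. DNA repair (20 of 46 lower, 2 higher), nucleotide synthesis (15 of 33 lower, none higher) and chromatin regulators (15 of 38 lower, 3 higher) had medians of -0.39, -0.36 and -0.28. No nucleotide synthesis gene was higher at an unadjusted p under 0.05 by edgeR, and DESeq2 and limma-voom called 0.

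UNG, which removes uracil from DNA, fell from 200, 181 and 160 CPM to 71.5, 74.9 and 69.0. TYMS, thymidylate synthase, fell from 29.8, 27.0 and 22.6 CPM to 9.73, 9.59 and 9.27. UHRF1, which brings the maintenance methyltransferase to newly copied DNA, fell from 123, 119 and 94.4 CPM to 34.9, 41.2 and 42.9. The methyltransferase DNMT1 itself fell 1.67-fold, the remodeller HELLS 2.64-fold, the ribonucleotide reductase subunits RRM1 and RRM2 1.86-fold and 1.8-fold, and the dUTPase gene DUT 2.19-fold. FAM111B, a protease gene, fell 3.1-fold. The share of all counts taken by the replication list went from 0.672% ± 0.0134 to 0.337% ± 0.0206 (SD, n = 3), and that of the mitosis list from 0.682% ± 0.0319 to 0.45% ± 0.0227.

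Promoter sequences of 6 genes are shown because they hold the motifs that were counted in the cell cycle and stress groups. Sequences are RefSeq, build GRCh38.p14, on the strand of the gene, 5′ to 3′, with the motif in capitals and 18 bases on each side where they lie before the start. In GINS2 (chr16:85688960-85689003, minus strand), UHRF1 (chr19:4909469-4909500, plus strand), MCM6 (chr2:135876508-135876551, minus strand) and CDC6 (chr17:40287833-40287876, plus strand) the capitals mark an E2F site. In CCNF (chr16:2429344-2429385, plus strand) they mark the cell cycle genes homology region (CHR), and in TPT1 (chr13:45341252-45341295, minus strand) the unfolded protein response element (UPRE). In GINS2, UHRF1 and TPT1 the match is on the opposite strand, so the capitals show its complement.
GINS2: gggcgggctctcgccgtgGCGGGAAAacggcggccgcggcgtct
UHRF1: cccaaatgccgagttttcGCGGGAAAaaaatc
MCM6: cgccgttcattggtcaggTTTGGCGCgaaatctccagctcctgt
CDC6: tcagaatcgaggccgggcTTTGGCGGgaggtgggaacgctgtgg
CCNF: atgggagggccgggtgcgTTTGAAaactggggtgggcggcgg
TPT1: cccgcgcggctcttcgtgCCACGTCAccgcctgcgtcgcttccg
In MCM6 the letters after the capitals extend the match to an E2F site on the other strand, so these matches overlap, and MCM6 holds a further such pair upstream.

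Motifs were searched on both strands in the 250 bases before and 50 bases after each start. The E2F sites searched were TTTCCCGC, TTTGGCGC, TTTCGCGC and TTTGGCGG, the CHR was TTTGAA, the CCAAT box, bound by NF-Y, was CCAAT, and the UPRE, bound by XBP1 and ATF6, was TGACGTGG. The CARE, bound by ATF4 with a C/EBP partner, was TGATGNAA. A promoter was found for 9263 of the 11323 genes tested. Any E2F site was present in 3.43% of all 27305 promoters, in 5.84% of tested genes and in 55.6% (20 of 36) of replication-list genes that fell. The CHR was present in 15.4% of all promoters, in 9.64% of tested genes and in 71.4% (20 of 28) of mitosis-list genes that fell. The CCAAT box was present in 35.7% of all promoters and 78.6% of the same mitosis genes.

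A match is a description of the letters, not a bound site. Shares in replication-list and mitosis-list genes that did not fall were not counted. A difference between members that fell and members that did not was therefore not tested. Across all 1008 genes with a promoter that fell outside the ER lists, 9.23% had an E2F site and 13.6% a CHR. CDC6, which rose, holds an E2F site as well. The UPRE was present in 0.795% of all promoters, in 8.14% of ER-list genes that rose and in 2.24% of the other genes that rose. The CARE was present in 3.67% of all promoters, in 1.63% of tested genes, in 7.24% of ER-list genes that rose and in 2.85% of the others. With only the 250 bases before the start, the E2F share in the replication genes was 36.1% (2.91% of all promoters) and the CHR share in the mitosis genes 60.7% (13.6% of all promoters).

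**Figure D3:**
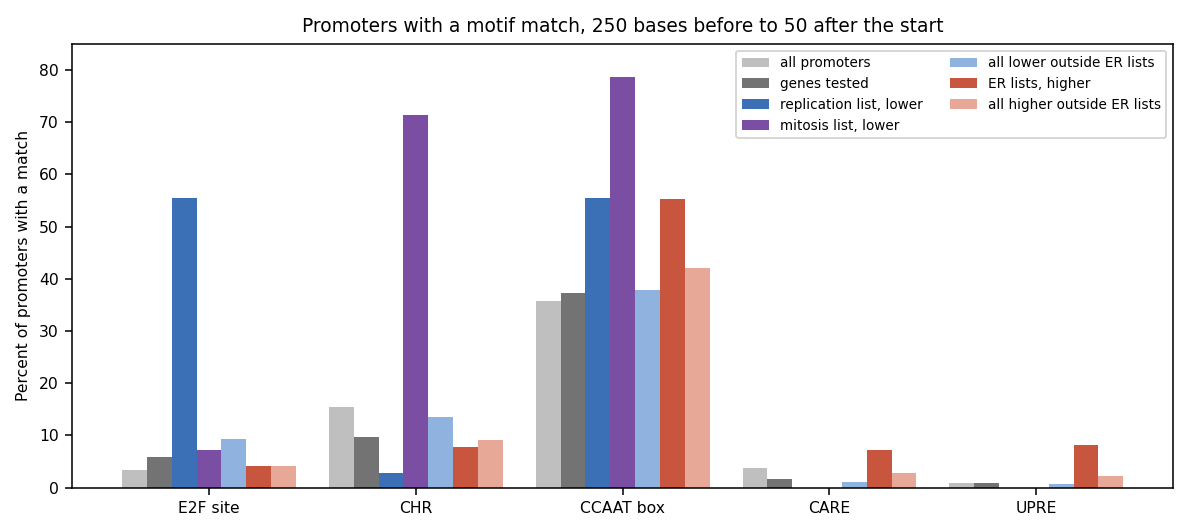
Percent of promoters with a match to each motif on either strand, for all promoters, genes tested and groups of called genes. The E2F bar of the replication genes stands at 55.6% and the CHR bar of the mitosis genes at 71.4%, against 5.84% and 9.64% of tested genes. Members of these lists that did not fall are not drawn as a group.

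A list of cell cycle inhibitors, G1 cyclins and kinases, and genes induced by DNA damage had 5 of 40 higher, near the background of 12.6%, and 11 lower (median -0.24). CDKN1A, which encodes the inhibitor p21, rose from 2.04, 3.59 and 4.47 CPM to 19.5, 13.0 and 12.5. CDKN2B, which encodes the CDK4 inhibitor p15, rose from 8.30, 8.40 and 7.29 CPM to 22.9, 24.6 and 24.0. CCND3, cyclin D3, fell from 121, 119 and 118 CPM to 60.8, 63.0 and 61.0, and the kinase gene PLK2 fell 1.84-fold. MYC and CCND1 were not called, with log2 fold changes of 0.17 (95% interval -0.08 to 0.41) and -0.22 (-0.51 to 0.07). The number lower was 7 without DMSO library 2 and 7 without Tm library 2.

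Outside the ER lists, the 6 called genes with the largest loss in CPM were abundant structural, glycolytic and chaperone genes. ACTB, β-actin, fell from 27207, 20026 and 19127 CPM to 13892, 16713 and 14956, and its adjusted p of 0.01 (edgeR) was lost without DMSO library 1 (log2 -0.37) and without Tm library 1 (log2 -0.47). TUBB and TUBB4B, which encode β-tubulins, fell 1.92-fold and 1.87-fold. In the actin and microtubule list 17 of 48 genes fell (35.4%) and 4 rose (8.33%), beside 11.1% and 12.6% of all genes tested. The median was -0.19, and 11 fell without Tm library 1. HSPA8, the constitutive cytosolic HSP70, fell from 12277, 11276 and 11397 CPM to 6159, 7058 and 6277. The cytosolic heat shock list had 9 of 41 lower (22%) and 5 higher (12.2%), the latter near the background. Its share of all counts went from 3.13% ± 0.056 to 2.07% ± 0.042 (SD, n = 3). The prefoldin subunit gene PFDN2 rose 2.49-fold in the same list, and HSPB1 and FKBP5 fell 2.26-fold and 1.72-fold.

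LDHA, lactate dehydrogenase, fell from 5205, 4509 and 4800 CPM to 2908, 3204 and 2995. The glycolysis and hypoxia list had 9 of 38 lower (23.7%) and 4 higher (10.5%), beside 11.1% and 12.6% of all genes tested (median -0.21). The number lower was 5 without DMSO library 1, 5 without DMSO library 2 and 3 without Tm library 1. In this list the glucose transporter SLC2A1 rose 1.63-fold, while PGAM1, phosphoglycerate mutase, fell 1.45-fold. PKM, pyruvate kinase, fell 1.37-fold (edgeR adjusted p = 0.0321), a call lost without any of the DMSO libraries and without Tm library 3. KRT19, a keratin of simple epithelia, fell 1.56-fold and lost its call without DMSO library 1, Tm library 1 or Tm library 3. KRT8 and KRT18 were not called (log2 -0.27 and -0.24). In the keratin list 5 of 18 genes fell (27.8%) and 2 rose (11.1%, near the background), with KRT17 up 2.12-fold.

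Genes often used as references were not all level. In each direction 17.9% were called, beside 12.6% higher and 11.1% lower of all genes tested. Of 28 reference genes 5 fell (3 without DMSO library 1), namely ACTB, GPI, SDHA, POLR2A and HPRT1, and 5 rose, namely RPLP0, VCP, EMC7, REEP5 and C1orf43. Their median log2 fold change was -0.02. HPRT1, a purine salvage enzyme, fell from 64.9, 62.6 and 68.9 CPM to 43.1, 45.5 and 48.8. RPLP0, a ribosomal stalk protein, rose from 3183, 3202 and 3223 CPM to 4310, 5469 and 4191. GAPDH was not called (log2 -0.16, 95% interval -0.44 to 0.12). These 10 genes are all the called ones of the reference list and were named after their values were seen.

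Among messages of the translation machinery, many rose by small amounts. Of 80 cytosolic ribosomal protein genes 42 (52.5%) rose and none fell, beside 12.6% and 11.1% of all genes tested. Their median log2 fold change was 0.45. The number that rose was 24 without DMSO library 2, 27 without DMSO library 3 and 20 without Tm library 2. None was lower at an unadjusted p under 0.05 by edgeR, and DESeq2 and limma-voom called 0 lower. Ribosomal transcripts are short. Genes outside the ER lists were put in 5 equal classes of transcript length and of GC content. The shortest had 15.7% of genes higher and 7.5% lower, against 7.98% and 12.2% in the longest. The class of lowest GC content had 12.7% higher and 7.2% lower, against 7.29% and 12.9% in the highest. The parts of transcript length and GC content in the ribosomal rise were not tested.

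TPT1, a translationally controlled protein of growing cells, rose 1.8-fold, from 3138, 2762 and 2540 CPM to 4674, 5507 and 5030. In the translation factor list 11 of 48 (22.9%) rose and 1 (2.08%) fell (median 0.13), beside 12.6% and 11.1% of all genes tested. EIF1, which guards start codon choice, rose from 339, 355 and 403 CPM to 988, 1073 and 844. EIF2S2, the β subunit of eIF2, rose 1.66-fold and EIF5, its GTPase activator, 1.74-fold, whereas EIF4EBP2, a brake on cap-dependent translation, fell 1.74-fold. Ribosome biogenesis had 6 of 42 (14.3%) higher, near the background of 12.6%, and 2 (4.76%) lower. Without Tm library 2 the number higher was 3. RIOK2, a kinase of small subunit maturation, rose 2.01-fold and RRP1B, a nucleolar protein gene, fell 1.59-fold.

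FTL, the ferritin light chain, had the largest gain in CPM among called genes outside the ER lists. It was at 15969, 13181 and 12394 CPM under DMSO and at 16634, 24406 and 19408 under Tm, so the lowest Tm library lay just above the highest DMSO library. The call (log2 0.54, edgeR adjusted p = 0.0232) was lost without DMSO library 2 or 3 and without Tm library 2. In the metal ion list 10 of 31 genes rose (32.3%) and 2 fell (6.45%), beside 12.6% and 11.1% of all genes tested (median 0.27). SLC31A1, the copper importer, rose from 22.9, 24.0 and 30.5 CPM to 98.6, 102 and 102, and the zinc transporters SLC30A7 and SLC39A7 rose 2.79-fold and 2.22-fold.

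Genes of mitochondrial protein import and quality control had more calls upward than the background. In their list 11 of 46 rose and 2 fell (median 0.10). TIMM17A, a subunit of the inner membrane import channel, rose from 74.6, 70.6 and 74.6 CPM to 192, 204 and 216. HSPA9, the matrix HSP70 that pulls proteins in, rose 2.15-fold and the matrix protease gene LONP1 2.5-fold. In the list of the tricarboxylic acid cycle and pyruvate entry 5 of 36 rose and 4 fell, so that its counts were near the background of 12.6% and 11.1%. PCK2, mitochondrial phosphoenolpyruvate carboxykinase, rose from 22.3, 23.6 and 19.5 CPM to 101, 120 and 122 (log2 2.39, SE 0.126, edgeR adjusted p = 6.57e-11). GOT1, an aspartate aminotransferase, rose 2.72-fold. CYCS, cytochrome c, rose 2.41-fold.

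Lipid lists had calls in both directions, beside 12.6% higher and 11.1% lower of all genes tested. Fatty acid and glycerolipid synthesis, with 8.89% and 11.1%, was not above these shares. Fatty acid oxidation had 7.5% and 17.5%, and cholesterol synthesis 23.3% and 26.7%. HADH and CPT1A, of fatty acid oxidation, fell 2.02-fold and 1.75-fold in a list with 7 of 40 lower and 3 higher, and 4 lower without Tm library 1. In cholesterol synthesis 8 of 30 fell and 7 rose, with 5 lower without DMSO library 1, DMSO library 2 or Tm library 1. HSD17B7, an enzyme of the pathway, rose 2.22-fold. Fatty acid and glycerolipid synthesis (4 of 45 higher, 5 lower) held opposite changes in acyltransferases of triglyceride synthesis. GPAT3, at the first step, rose from 17.2, 19.4 and 18.1 CPM to 68.1, 64.5 and 84.7, and DGAT2, at the last step, fell from 7.35, 10.6 and 8.86 CPM to 2.56, 2.60 and 1.82. Of the NADPH, glutathione and NRF2 list 9 of 38 rose and 5 fell, with 5 higher without DMSO library 2 or Tm library 2. UGDH, which makes UDP-glucuronate, rose 3.57-fold, GCLC, the first enzyme of glutathione synthesis, 2.4-fold and OSGIN1 2.64-fold, while CAT, catalase, fell 1.65-fold.

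Epithelial identity lists had calls without a common direction. Over all genes tested 12.6% were called higher and 11.1% lower. Of the WNT target and stem cell list 8 of 27 fell and 3 rose, with 4 lower without Tm library 2. LGR5 (above) and CDCA7 (2.31-fold) fell, and AXIN2, a feedback target of WNT signalling, fell as well (log2 -0.71, edgeR adjusted p = 0.0156). PROM1, which encodes CD133, rose from 30.9, 27.7 and 29.3 CPM to 117, 87.0 and 91.2, and SMOC2, a matricellular protein gene, from 1.23, 0.487 and 0.67 CPM to 10.4, 10.97 and 11.9. Goblet and secreted barrier genes had 9 of 31 higher and 1 lower (median 0.36). LCN2, the siderophore-binding lipocalin, rose from 59.7, 68.0 and 59.1 CPM to 308, 361 and 325, and S100P rose from 206, 185 and 211 CPM to 937, 1256 and 975. MUC2, the main gel-forming mucin of goblet cells, averaged 1.25 CPM under DMSO and 2.49 under Tm and was not called.

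Of intestinal transcription factors 7 of 27 fell (25.9%) and 3 rose (11.1%), beside 11.1% and 12.6% of all genes tested. The number lower was 4 without DMSO library 1 or Tm library 1. PPARG fell 1.93-fold and GRHL2, a regulator of epithelial junctions, 1.62-fold, while the epithelial splicing factor gene ESRP1 rose 2.15-fold. In the enterocyte list 5 of 16 fell, with VIL1, the villin of microvilli, down 1.74-fold, and 2 rose, with LGALS4 up 1.98-fold. Tight junction and polarity genes had 3 of 36 higher (8.33%) and 5 lower (13.9%), not far from the shares of all genes tested. Of 9 claudin genes 2 rose, 1 fell and 6 were not called. CLDN7 rose from 169, 159 and 155 CPM to 250, 344 and 262 and CLDN1 1.8-fold, while CLDN2 (above) fell. CLDN3 and CLDN4 were not called (log2 0.09 and -0.09).

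In lists of adhesion genes and of growth factor ligands and receptors more members fell than rose. Over all genes, 11.1% of those tested were lower and 12.6% higher. In the adherens junction, desmosome and adhesion list 12 of 33 fell and 2 rose (median -0.21), with 7 lower without Tm library 3. BCAM, a laminin receptor of the immunoglobulin family, fell from 221, 174 and 137 CPM to 59.0, 75.8 and 70.1. CD9, a tetraspanin, fell 1.85-fold, and of 14 genes with TSPAN symbols 6 fell (3 without Tm library 3) and 1 rose (2 without DMSO library 1). CD55, a shield against complement, rose from 53.6, 48.5 and 56.7 CPM to 203, 213 and 207. In the integrin, laminin and matrix list 10 of 43 fell (23.3%) and 5 rose (11.6%), the latter near the background. The number that rose was 2 without DMSO library 2, DMSO library 3 or Tm library 1. LAMB3, a laminin-332 chain, rose 2.52-fold and PLAUR, the urokinase receptor, 2.49-fold, while the proteoglycan SDC1 fell 2.07-fold. Growth factor ligands and receptors, counted together, had 15 of 45 lower (33.3%) and 6 higher (13.3%), with a median of -0.28. ERBB3, a receptor of the neuregulins, fell (log2 -0.79), MET, the receptor of hepatocyte growth factor, rose (log2 0.49), and EGFR, the receptor of AREG and EREG, was not called (log2 -0.17, 95% interval -0.43 to 0.08).

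**Figure D4:**
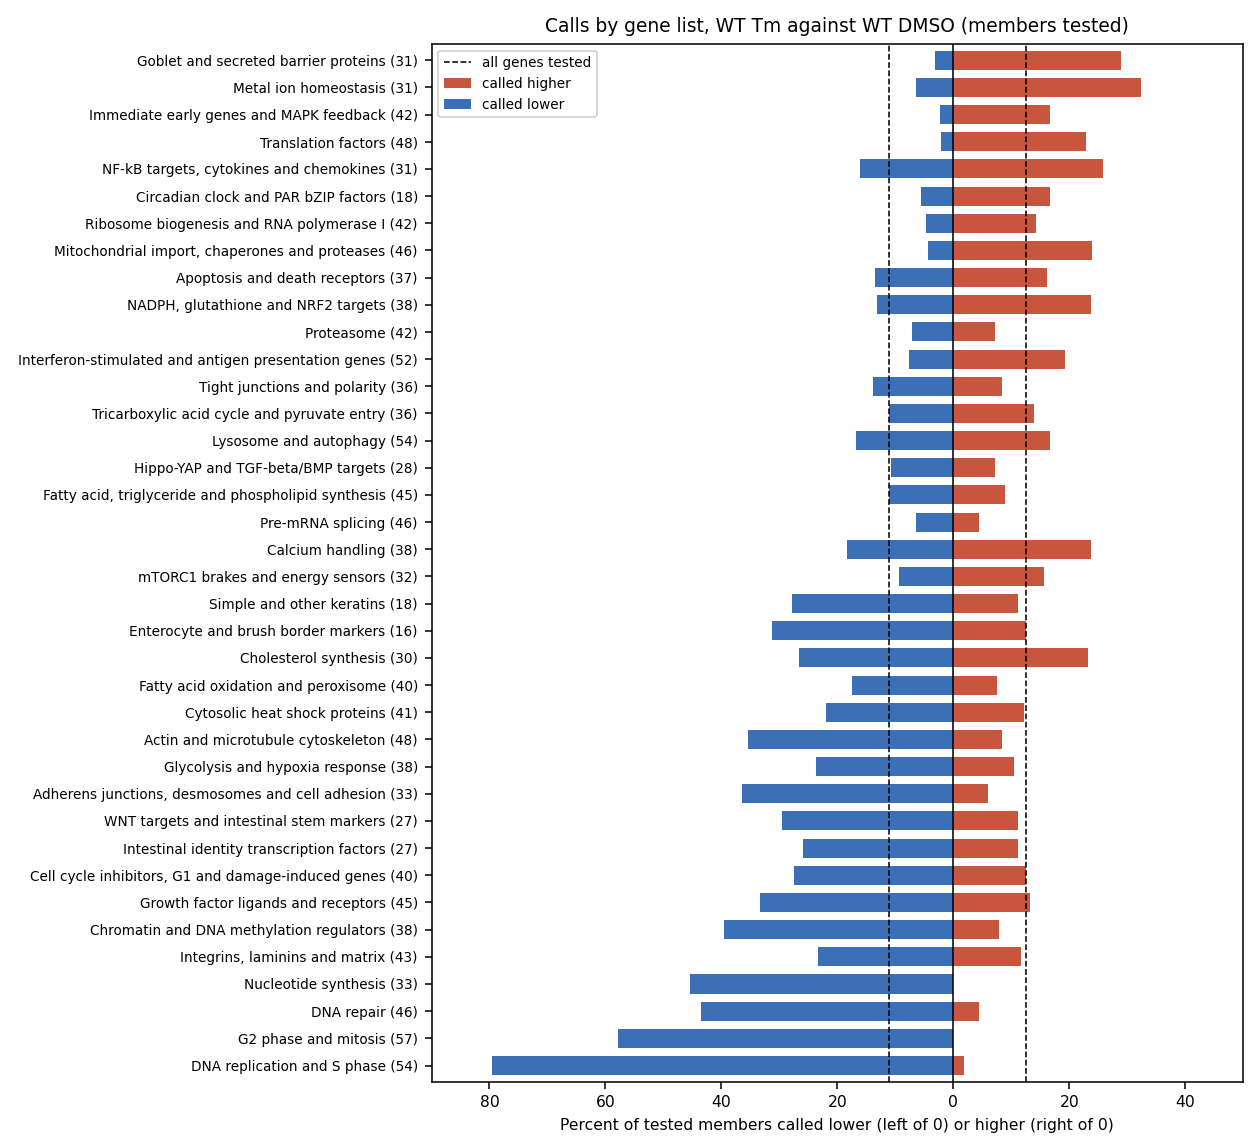
Percent of tested members called higher or lower in each of 38 lists outside the ER programmes, ordered by median log2 fold change, with dashed lines at the shares of all genes tested (12.6% and 11.1%). DNA replication stands at the bottom with 79.6% lower, and the goblet list at the top with 29% higher.

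Calls in signalling and stress lists went both ways, as did those over all genes tested (12.6% higher and 11.1% lower). The shares higher and lower were 16.2% and 13.5% for apoptosis and 16.7% and 5.56% for clock genes. They were 7.14% and 10.7% for Hippo, TGF-beta and BMP targets, and 19.2% and 7.69% for interferon and antigen presentation genes. NF-kB targets had 25.8% and 16.1%, and immediate early genes 16.7% and 2.38%. Immediate early genes had 7 of 42 higher and 1 lower (median 0.23), with NR4A2 up 3.33-fold and PHLDA2 1.92-fold. NF-kB targets had 8 of 31 higher (5 with a minimum count of 30) and 5 lower, where TNFRSF12A, the TWEAK receptor, rose 1.71-fold and the chemokine gene CXCL8 fell 1.76-fold. Interferon and antigen presentation genes had 10 of 52 higher and 4 lower, and 6 higher without Tm library 2. HLA-C rose 1.48-fold, but reads of class I genes can map to more than 1 of them, and OAS3 fell 1.68-fold. In apoptosis 6 of 37 rose and 5 fell, with the inflammatory caspase gene CASP4 up 1.58-fold and CASP6 and CASP2 down 1.93-fold and 1.61-fold. Clock genes had 3 of 18 higher, PER1 among them with 2.9-fold, and 1 lower. Hippo, TGF-beta and BMP targets had 2 of 28 higher, AJUBA (1.57-fold) and TGIF1 (1.43-fold), and 3 lower.

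Calcium handling had 9 of 38 higher and 7 lower (23.7% and 18.4%), beside 12.6% and 11.1% of all genes tested. ATP2A2, the calcium pump of the ER membrane, rose from 26.1, 22.5 and 20.7 CPM to 47.4, 44.8 and 56.6, ATP2B1, the pump of the plasma membrane, rose 1.7-fold and RCAN1, a calcineurin regulator, 2.93-fold. The lysosome and autophagy list had 9 of 54 on each side, with 3 lower without DMSO library 1 or Tm library 1, 4 without DMSO library 2 and 5 without Tm library 3. WIPI1, which binds the early autophagosome, rose from 2.45, 4.63 and 3.27 CPM to 58.6, 66.5 and 56.7. LIPA, the lysosomal acid lipase, rose 2.85-fold and TAX1BP1, an autophagy receptor, 2.12-fold. Among mTORC1 brakes and energy sensors 5 of 32 rose and 3 fell, and TXNIP, which restrains glucose uptake, rose from 66.9, 57.8 and 49.3 CPM to 240, 219 and 216. Proteasome subunits (3 of 42 higher, 3 lower) and splicing factors (2 of 46 higher, 3 lower) had fewer calls than the background. PSMA5 rose 1.49-fold and PSMD1 fell 1.46-fold in the first, and SF3B5 rose 2.42-fold and SRSF2 fell 1.56-fold in the second. Of 44 list counts of 5 or fewer in a direction, 26 moved by over 1.5 times when 1 library was left out, by at most 3 calls.

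Gene families defined by symbol gave a view not tied to function, and ER-list members were not taken out of them. Of 378 zinc finger (ZNF or ZFP) genes 34 rose and 15 fell, below the background of 12.6% higher and 11.1% lower. The number higher was 19 without DMSO library 2 and 21 without Tm library 1. The 15 lower became 5 without DMSO library 2 and 7 without DMSO library 3 or Tm library 1. Solute carriers (SLC) had 41 of 213 higher and 22 lower, with 13, 14 and 12 lower without DMSO library 2, Tm library 2 and Tm library 3. Ubiquitin ligase genes of the RNF family had 15 of 61 higher and 3 lower, and 8 higher without DMSO library 3 or Tm library 2. Genes with NDUF symbols, mostly of complex I, had 10 of 46 higher and 1 lower, and 6 higher without DMSO library 2 or Tm library 2. Kinesins (KIF) had 8 of 31 lower and 3 higher.

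Some genes crossed the limit of 3 counts. Of 1431 genes called higher, ER-list genes included, 16 had at most 3 counts in every DMSO library and more in every Tm library. Of 1259 called lower 6 had the reverse. Genes this low in a group passed the count filter only through other groups, so the number of such genes depends on the filter. UNC5B, a netrin receptor, had 0 counts in the 3 DMSO libraries and 53, 39 and 22 in the Tm libraries, and was at least 13.4-fold higher against 3 counts per DMSO library. MMP13, a collagenase, had 1, 1 and 0 counts under DMSO and 42, 30 and 26 under Tm. BHLHA15, a transcription factor of secretory cells also called MIST1, had 2, 2 and 0 counts and then 28, 35 and 18. CERS3, a ceramide synthase, had 1, 1 and 0 and then 29, 62 and 13, and CCNP, a cyclin-like gene, 0, 2 and 3 and then 63, 75 and 28. Among the reverse cases CDKN2C, which encodes the CDK inhibitor p18, had 9, 20 and 7 counts under DMSO and 0, 3 and 1 under Tm, and lost its call without DMSO library 2 or Tm library 1.

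For most of the transcriptome no call does not mean no change. Of 8633 genes not called, 3348 had a 95% interval that lay within a 1.5-fold change in either direction, and 5285 had a wider one. Over all genes tested 30.2% had an interval within that range.

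The QRICH1 KO libraries, which have their own DMSO group, hold the same measure in other samples. They are outside the WT contrast, but they share its count filter, scaling and estimate of the spread. With the WT libraries alone 1335 genes were called higher and 1203 lower. QRICH1 mRNA, the target of the KO guide, was at 22.7 to 35.0 CPM in the 6 WT libraries and at 19.2 to 26.8 in the 6 KO libraries, so the groups overlapped and its level does not separate the genotypes. In KO cells 15.6% of tested genes were called with Tm. Of the 1175 genes that rose outside the ER lists in WT, 1144 had a higher level with Tm in KO too and 646 were also called. Of the 1250 that fell, 1212 had a lower level in KO and 536 were also called. TSPYL2 rose by log2 2.72 in KO, AREG by 2.35, and DGAT2 fell by 2.08. GINS2 and CDC6 were called in KO as in WT, with log2 fold changes of -1.08 and 0.94.

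The difference between the responses was tested by the interaction over all 11323 genes, where edgeR called none (0.0%), with 774 at an unadjusted p under 0.05, and limma-voom called none, with 797. DESeq2 called 41, edgeR without the count filter 44 and edgeR without DMSO library 3 called 4. Of the genes called in WT outside the ER lists, 207 that rose and 201 that fell had an unadjusted p under 0.05. The named genes were picked by their WT values, so the sizes of their WT and KO folds are given without a comparison.

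**Figure D5:**
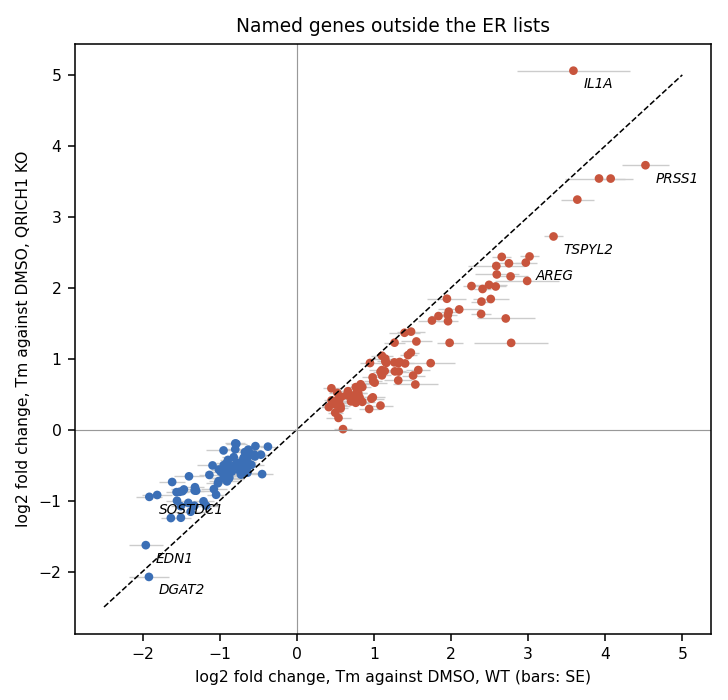
Log2 fold change with Tm in QRICH1 KO against that in WT for 171 named genes outside the ER lists (points, red higher and blue lower in WT, bars SE in WT), with a dashed line of equal folds. All 171 have the same sign in both genotypes, and the genes were selected on the WT values.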

How the data were processed

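The authors deposited 1 table of raw read counts per gene (20015 genes, 12 libraries), in whole numbers and not normalised. Per the labels' protocols, cDNA came from a modified Smart-seq2 method and libraries from Nextera XT, which mark neither strand nor molecule, so overlapping and antisense genes cannot be separated. Trimmomatic, STAR and DESeq2 with the build hg38 are named in the submitters' processing notes. How reads were counted, and on which annotation, is not given in the sources used here. Positions of genes came from GENCODE 29 (19972 IDs matched) and current symbols from a name table (19893 matched).

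Counts were scaled by TMM and filtered by filterByExpr (minimum count 10), and edgeR 4.0.16 (R 4.3.3) fitted 4 group means to all 12 libraries, so the groups share 1 estimate of the spread. P-values are two-sided and adjusted by Benjamini-Hochberg over the 11323 genes tested. The SE came from the F statistic. The procedure was tested on simulated data. Chi-square per degree of freedom between WT replicates was 8.64 to 26.6, well above sampling noise.

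The rule for named genes took check genes, the 14 largest folds in each direction outside the ER lists (at least 10 CPM, groups not overlapping), the 6 largest gains and losses of CPM, up to 4 members of each list by smallest p, and up to 6 genes crossing 3 counts in each direction, and some of these genes are not reported here. Lists were described by counts and medians with no set test. The members, lists and families were chosen with earlier results of these data known. Of 2120 list genes 4 had no entry in the table. Promoters came from RefSeq (GRCh38.p14), matched by symbol.

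Alternatives were RLE and upper-quartile factors, no filter, a minimum count of 30, DESeq2 1.42.0, limma-voom (limma 3.58.1), the WT libraries alone, a replicate block, each WT library left out, a shorter promoter window and, chosen after seeing the data, a fit without library 3 of both KO groups, which had counts for more genes than the others.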

Additional observations from a re-analysis of the deposited data

How the results depend on the processing

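The numbers of genes called stayed within 1.5 times of 1431 higher and 1259 lower under each alternative run. They ranged from 1119 to 1315 higher and 896 to 1129 lower with 1 WT library left out, and were 1522 and 1314 with DESeq2, 1433 and 1184 with limma-voom, and 1290 and 1470 with upper-quartile factors. Without library 3 of both KO groups, chosen after seeing the data, 1453 and 1405 were called. Genes called under these settings had 1 direction throughout. Deviations from the group means had correlations of -0.139, -0.051 and 0.019 between same-numbered WT libraries. Between other-numbered ones they were -0.136 to 0.164. These values show no pairing by number, but they cannot tell whether the libraries were prepared in pairs. With a replicate block the counts were 1500 and 1323 in all 12 libraries and 1092 and 903 in the WT libraries alone, where 16 ribosomal protein genes and 6 translation factors were higher. Of 2973 values of the named genes under the alternatives, 60 lost their call, in 18 genes, and none changed sign. For the interaction, DESeq2 called 5 of the named genes and edgeR without the count filter 1. The share of counts moved was 16.01% to 16.93% with 1 library left out and 16.6% with TMM scaling. Depth limits the low genes most: at 3 counts the level is 0.198 to 0.438 CPM.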
